A study of Magallana gigas with 6 samples.

Results

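The 5 oyster mantle genes Cg22415, Cg19693, Cg23294, Cg07906 and Cg14895 were highest by a wide margin in 1 of 6 RNA-seq libraries, the library labelled low EPA+DHA replicate 3. They were chosen by a rule on the deposited counts, scaled to 1000000 reads of each library (counts per such number, CPM): an identifier that starts with Cg, a mean under 1000 CPM over the 6 libraries, at least 20 CPM in low library 3, and there at least 4 times the CPM of each of the other 5 libraries. Of 30342 Cg rows and of 34871 rows in all, 5 met it. The values they were selected on are those of low library 3 against every other library, so the height of low library 3 is a description here and was not tested.

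The libraries came from mantle of F2 oysters, descended from Crassostrea angulata mothers and Crassostrea gigas fathers, sampled at 11 months of age where they were grown. The low group was a mix of RNA from 40 oysters with low EPA+DHA content, and the high group a mix of RNA from 40 oysters with high content, drawn from the extremes of 1 population. EPA and DHA are eicosapentaenoic and docosahexaenoic acid, long-chain omega-3 fatty acids of marine animals. Each mix gave 3 libraries that the series describes as technical replicates, so neither group has replicate animals and every p-value measures the spread between libraries only.

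The mantle is the tissue that lines the shell of a bivalve and secretes the shell's mineral layers and organic matrix. Its edge and its inner zones differ in the secreted proteins they make, and it also holds muscle fibres, sensory tentacles, blood spaces and, in the ripening season, gonad tissue close by. In RNA of a whole tissue, fewer cells of a type and less RNA per cell cannot be told apart. None of the identifiers could be paired with a gene name, so what the 5 genes encode is not reported, and the labelled tissue could not be checked against marker genes.

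The low libraries differed from one another more than the high libraries did. Low library 3 held 11703483 reads, low libraries 1 and 2 held 12751690 and 12524221, and high libraries 1, 2 and 3 held 10250561, 10160893 and 9788187. Across genes, which are not independent replicates, its log2 CPM correlated at 0.915 with low library 1 and at 0.891 with low library 2, and at 0.916 to 0.923 with the high libraries. Low library 1 correlated at 0.905 to 0.912 and low library 2 at 0.879 to 0.887 with the high libraries, so that low library 3 was the low library nearest to them by this measure. Low libraries 1 and 2 correlated at 0.952 with each other and the high libraries at 0.977 to 0.980. A level that 1 library decides is therefore given for each library, and the low group is described below with and without low library 3.

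Together the 5 genes took 5631 reads in low library 3, which is 0.0481% of that library (exact binomial 95% interval 0.0469% to 0.0494%, counting error only). Their share was 0.00452% and 0.00854% in low libraries 1 and 2, and 0.00319%, 0.00268% and 0.00328% in high libraries 1, 2 and 3. They are thus a small part of the RNA in every library. Low library 3 exceeded the next library by a ratio of 4.54 to 6.27, with a median of 5.28, and it exceeded the mean of the high libraries by 6.32 to 79.5 times.

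**Figure D1:**
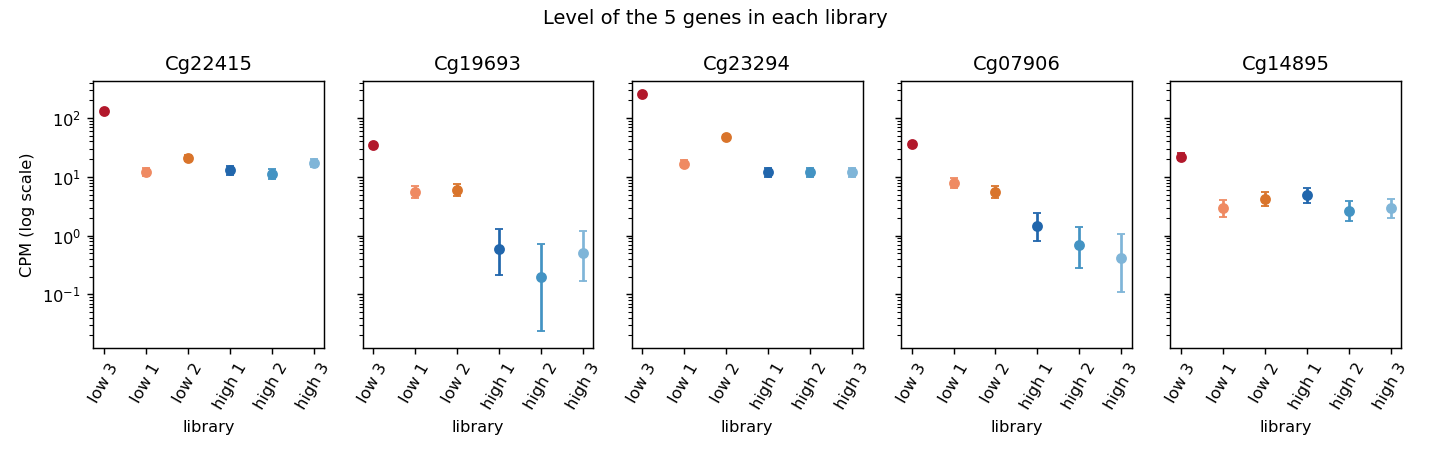
CPM (log scale) of each of the 5 genes in low library 3, low libraries 1 and 2 and high libraries 1 to 3, with exact Poisson 95% intervals as bars (counting error only). Low libraries 1 and 2 lie far above the high libraries for Cg19693 and Cg07906, and close to them for Cg22415 and Cg14895.

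Outside low library 3 the 5 genes did not share a pattern. In 3 of them both remaining low libraries were above every high library, and in the other 2 the low and high libraries overlapped. Over all 18043 genes tested without low library 3, 44.9% had both low libraries above every high library and 16.7% had both below. The share of 3 in 5 is near that background and is not a result about these genes.

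Cg19693 had 401 reads or 34.3 CPM in low library 3 and 5.57 and 5.99 CPM (71 and 75 reads) in low libraries 1 and 2. The high libraries held 0.585, 0.197 and 0.511 CPM, on 6, 2 and 5 reads. It thus had 3 separate levels, highest in low library 3, lower and alike in low libraries 1 and 2, and very low in the high libraries. Low library 3 was 5.72 times low library 2, the next in order (exact 95% interval of the ratio 4.46 to 7.42, counting error only). The intervals of the high libraries overlapped one another, so their order is not resolved.

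Cg07906 had 36.0 CPM in low library 3, and 7.92 and 5.51 CPM in low libraries 1 and 2. In the high libraries it had 1.46, 0.689 and 0.409 CPM, on 15, 7 and 4 reads. The same 3 levels appeared, and low libraries 1 and 2 had overlapping counting intervals. Its ratio to the next library, low library 1, was 4.54, and the interval of 3.65 to 5.70 reaches below the threshold of 4.

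Cg23294 had 256 CPM in low library 3, 16.7 and 48.5 CPM in low libraries 1 and 2, and 12.0 CPM in each of the 3 high libraries (117 to 123 reads). The low libraries differed from one another at every step, with low library 2 at 2.91 times low library 1 and low library 3 at 5.28 times low library 2. Among the high libraries the SD was 0.0290 CPM (n = 3), less than counting error alone would give, so that all of the wide spread of this gene lay in the low libraries. Low library 1, at 1.39 times the mean of the high libraries, was the low library nearest to them.

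Cg22415 had 133 CPM in low library 3, against 12.2 and 21.2 CPM in low libraries 1 and 2 and 13.0, 11.2 and 17.0 CPM in high libraries 1, 2 and 3. By column totals, low library 1 lay among the high libraries and low library 2 lay above them. The counting interval of low library 2, 18.7 to 23.9 CPM, overlapped the 14.5 to 19.7 CPM of high library 3. With TMM factors, low libraries 1 and 2 were at 11.0 and 17.1 CPM, and high libraries 1, 2 and 3 at 13.4, 11.7 and 17.8 CPM. Low library 1 was then the lowest and high library 3 came next after low library 3, so these places depend on the scaling. By column totals the ratio of 6.27 to the next library, low library 2, was the highest of the 5 genes.

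Cg14895 had 22.1 CPM (259 reads) in low library 3, 2.90 and 4.23 CPM in low libraries 1 and 2, and 4.88, 2.66 and 2.96 CPM in the high libraries. By column totals it was the only member for which a high library, high library 1, came next after low library 3. With TMM factors a high library came next for Cg22415 as well. The ratio of 4.54 had an interval of 3.34 to 6.27. Outside low library 3 its 5 values rested on 27 to 53 reads each, and the intervals of neighbours in that order overlapped.

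The contrast of low libraries 1 and 2 with the high libraries was fitted apart from low library 3. The rule put the same ceiling on all 5 of these libraries. It also asked for a high value in a low library, which can favour genes that are higher in the low group. The calls below are therefore not independent of how the genes were chosen. Counts were tested with the edgeR quasi-likelihood test and adjusted over all 18043 genes with a mean of at least 10 reads per library. That filter takes no account of group labels, and all 5 genes passed it. Cg19693 and Cg07906 passed it through their reads in low libraries 1 and 2, 71 and 75 for the first and 101 and 69 for the second. Their high libraries held 6, 2 and 5 reads, and 15, 7 and 4 reads. Of the 5 genes, 2 were called higher in low libraries 1 and 2 (adjusted p under 0.05) and 0 were called lower. Over all genes tested the edgeR test called 13.7% higher and 15.1% lower.

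By the fit with TMM factors, Cg19693 was 10.4-fold higher in low libraries 1 and 2 than in the high libraries. By column totals it averaged 5.78 ± 0.297 CPM (SD, n = 2) in low libraries 1 and 2 and 0.431 ± 0.206 CPM (SD, n = 3) in the high libraries. Means in CPM here and below lack the TMM scaling, so their ratios differ from the fitted changes. On the log2 scale the fitted change of Cg19693 was 3.38 ± 0.43 (SE), and edgeR gave an adjusted p of 0.00125. Cg07906 averaged 6.71 ± 1.70 CPM in low libraries 1 and 2 and 0.854 ± 0.546 CPM in the high libraries, a log2 fold change of 2.63 ± 0.47 (SE, adjusted p = 0.00493, edgeR). Both calls stood in all 13 alternative fits of this contrast, 3 of which also called Cg23294. For Cg19693 and Cg07906, low libraries 1 and 2 were thus above the high libraries as well. The further step up to low library 3 was set by the rule and was not tested.

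Cg23294 averaged 32.6 ± 22.5 CPM in low libraries 1 and 2, against 12.0 CPM in the high libraries, and its log2 fold change of 1.07 ± 0.36 (SE) missed the threshold (adjusted p = 0.0637, edgeR). Its value rested on low library 2. Without low library 2 the log2 fold change was 0.24, and without low library 1 it was 1.60 and passed, on a single low library assumed to vary like the others.

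Cg22415 and Cg14895 gave no call, with log2 fold changes of -0.079 ± 0.25 and -0.32 ± 0.35 (SE) and adjusted p of 0.835 and 0.519 in edgeR. The 95% intervals ran from -0.65 to 0.49 for Cg22415 and from -1.12 to 0.48 for Cg14895, so that changes of either sign within these bounds are not excluded, and the 2 groups are not shown to be alike. The signs of both also changed with the scaling of the libraries, to 0.28 and 0.026 with library size alone. That scaling moved the median over all genes to 0.37, against 0.033 with TMM factors.

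**Figure D2:**
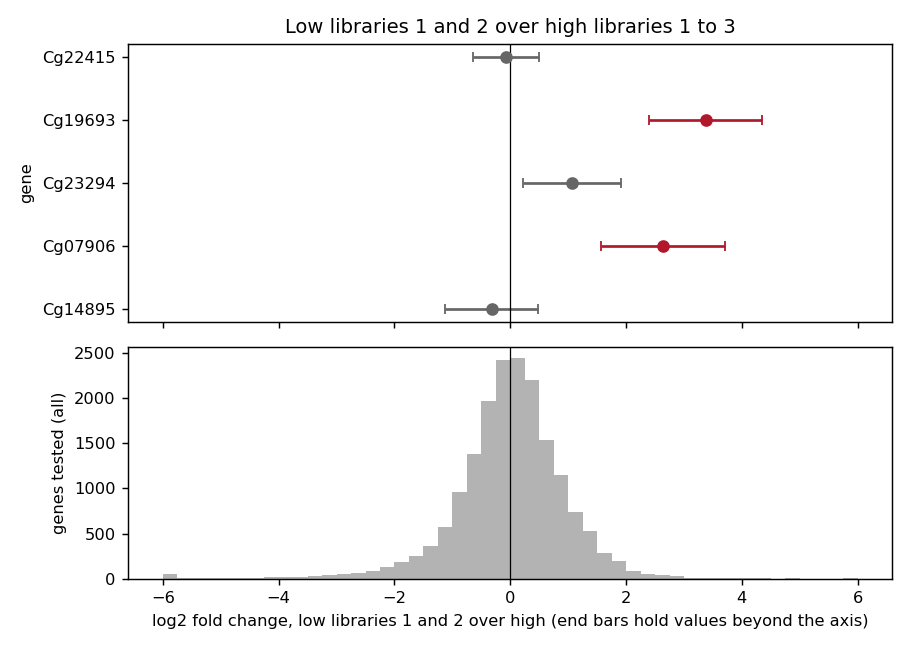
Upper panel, log2 fold change of low libraries 1 and 2 over high libraries 1 to 3 for the 5 genes, with 95% intervals (red, adjusted p under 0.05 in edgeR; grey, not called). Lower panel, the same quantity for all 18043 genes tested, centred near 0, where Cg19693 at 3.38 and Cg07906 at 2.63 lie in the upper tail.

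With low library 3 included, the comparison of the study sets 3 low against 3 high libraries. The edgeR test called 1 of the 5 genes, Cg19693, higher in the low group (log2 fold change 5.21 ± 1.09 SE, adjusted p = 0.0390), where 1.66% of all 17809 genes tested were called higher. Since the rule chose the genes on low library 3, nothing is read from that count. The fold changes of the other 4 genes were 1.57 to 4.34 on the log2 scale, and the spread that low library 3 brings went with wide errors, as for Cg23294, at 107 ± 130 CPM in low libraries 1 to 3 and 12.0 ± 0.0290 CPM in high libraries 1 to 3 (SD, n = 3 each) and an adjusted p of 0.102 in edgeR. That call of Cg19693 was lost in 6 of the 14 alternative fits, which were those without high library 1, 2 or 3, without low library 1, with no count filter and with limma-voom.

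With CPM by column totals alone, the set is small beside what the same thresholds gave in low library 2. Applied to each library in turn, they found 5 Cg rows in low library 3, which is 0.0165% of Cg rows. Low libraries 1 and 2 had 2 rows (0.00659%) and 27 rows (0.089%), and high libraries 1, 2 and 3 had 6 (0.0198%), 3 (0.00989%) and 0 rows. Among the rows whose identifiers start with XLOC, of which the table has 4529, the order was different, with 10 rows (0.221%) in low library 3, against 7 (0.155%) for low library 2 and 0 elsewhere. These counts depend on the scaling. The TMM factor was 0.823 for low library 3 and 1.24 for low library 2, so TMM scaling raises the first and lowers the second. With it 11 Cg rows met the rule in low library 3, and the other libraries were not recounted.

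**Figure D3:**
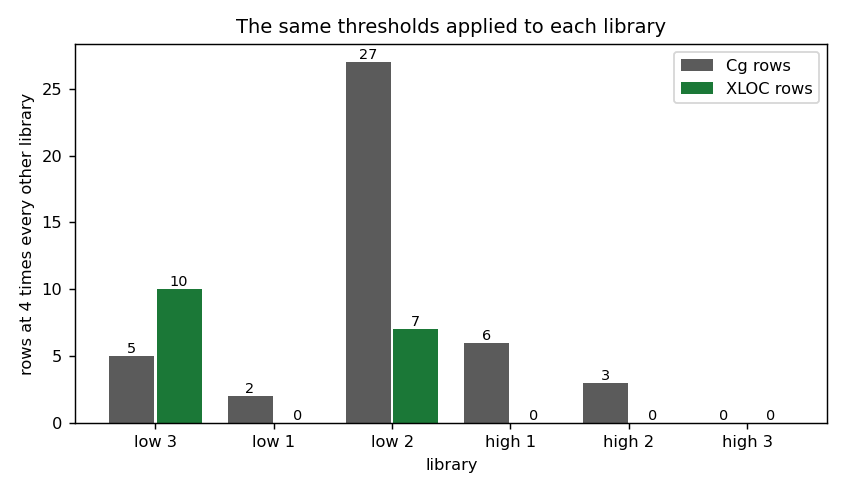
Number of Cg rows (grey) and XLOC rows (green) with at least 20 CPM in a library, at least 4 times every other library, and a mean under 1000 CPM, for each of the 6 libraries. CPM is by column totals alone, without TMM factors. Low library 2 has 27 Cg rows, and low library 3 has 5 Cg rows and 10 XLOC rows.

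The ratio threshold fell in a gap, with the nearest member at 4.54 and the nearest Cg row below it at 3.64 (Cg04373). The CPM threshold was near Cg14895, at 22.1 CPM, while the next Cg row with a ratio of 4 or more reached 5.13 CPM. The limit on the mean kept out 1 row, Cg05034, which had 13672 CPM in low library 3, a ratio of 4.81 to the next library and a mean of 3167 CPM. These rows are given for the place of the thresholds and were named after their values were seen.

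**Figure D4:**
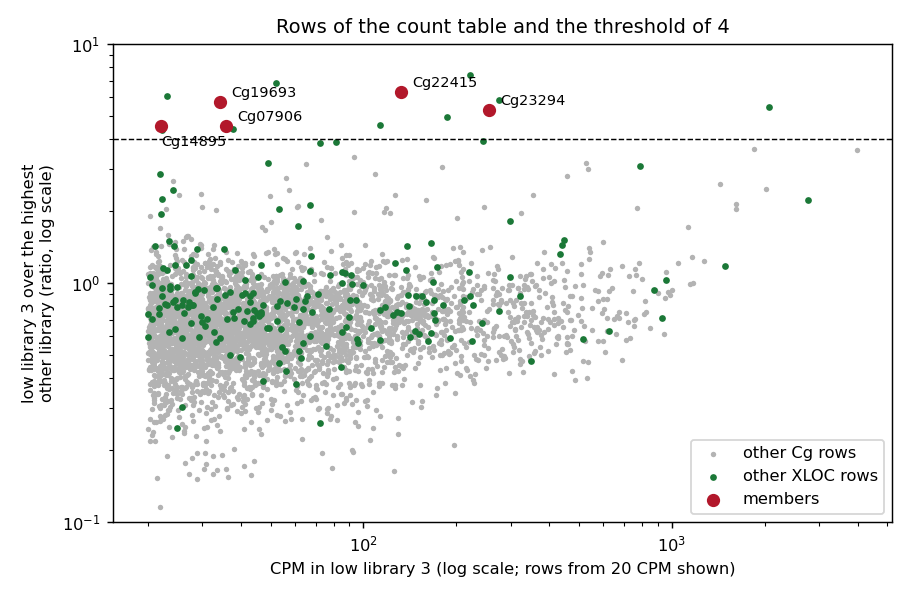
CPM in low library 3 (log scale) against the ratio of low library 3 to the highest other library (log scale), for rows with at least 20 CPM in low library 3 and a mean under 1000 CPM. The 5 members (red) lie above the dashed line at 4 together with 10 XLOC rows (green), and most Cg rows (grey) lie below 1.

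The 5 genes were scattered over the identifier numbers, which run from Cg00001 to Cg30695. The 2 nearest were 879 numbers apart, so none had another member within 5 or within 10 numbers. No source used here says whether Cg numbers follow the order of genes in a genome, and distances in identifier numbers are not distances in DNA.

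The genes other than Cg19693 are taken first, with their neighbours by number. Around Cg22415, Cg23294, Cg07906 and Cg14895, low library 3 was the highest library for 0 of the neighbours within 10 numbers that had a mean of at least 10 reads, which were 6, 7, 12 and 4 neighbours. Over all 16174 Cg rows with that many reads, low library 3 was the highest in 7.8%, so that 0 among so few is near the background. Several identifiers beside them had 0 reads in every library, among them 8 of the 20 around Cg23294.

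Cg19693 lay in a run of identifiers whose genes were also highest in low library 3. The run was delimited with these values in view. Of its 10 neighbours within 5 numbers, 8 had a mean of at least 10 reads, and in 5 of these 8 low library 3 was at least 2 times every other library, where 0.569% of all Cg rows with that many reads reached this ratio. With the neighbour 6 numbers above it, the run held 7 of the 9 identifiers Cg19691 to Cg19699. The other 2 did not take part: Cg19694 had 0 reads in every library, and Cg19692, the number just below the member, was lowest in low library 3, at 0.513 CPM there, 5.57 and 3.35 CPM in low libraries 1 and 2 and 2.04 to 3.02 CPM in the high libraries.

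The member was the one gene of the run that reached the ratio of 4 in the rule, and the others ranged from 2.06 to 3.60. Cg19696 had a ratio of 3.60, Cg19698 of 3.58, Cg19691 of 3.46, Cg19699 of 3.18, Cg19697 of 2.56 and Cg19695 of 2.06. The run as a whole took 2.09% of the reads of low library 3, 0.350% and 0.674% of those of low libraries 1 and 2, and 0.107%, 0.103% and 0.105% of those of the high libraries. Most of these reads were those of Cg19698, with 103465 in low library 3, Cg19697, with 78289, and Cg19696, with 46631, whereas Cg19693 had 401.

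The levels of the run differed in how low libraries 1 and 2 stood. Cg19695 had 770 CPM in low library 3, 354 and 374 CPM in low libraries 1 and 2, and 3.12, 3.15 and 3.68 CPM in the high libraries, so that its low libraries stood far above the high ones without low library 3 as well. Cg19698 had 8841 CPM in low library 3, 1474 and 2471 CPM in low libraries 1 and 2, and 201 to 228 CPM in the high libraries. By CPM of column totals, all 7 genes of the run had low libraries 1 and 2 above every high library, as did 44.9% of all genes tested. All 7 were called higher by the edgeR test without low library 3, where 13.7% of all genes were, with log2 fold changes from 1.12 (Cg19697, adjusted p = 0.0124) to 6.43 (Cg19695, adjusted p = 3.3e-07). The 7 rows, which include the member Cg19693, were chosen by their height in low library 3, and all genes were not. Both shares are given for scale only, and nothing is read from the count of 7. How reads shared by near-identical copies were counted is not given, so the 7 rows are uncertain as separate measurements.

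**Figure D5:**
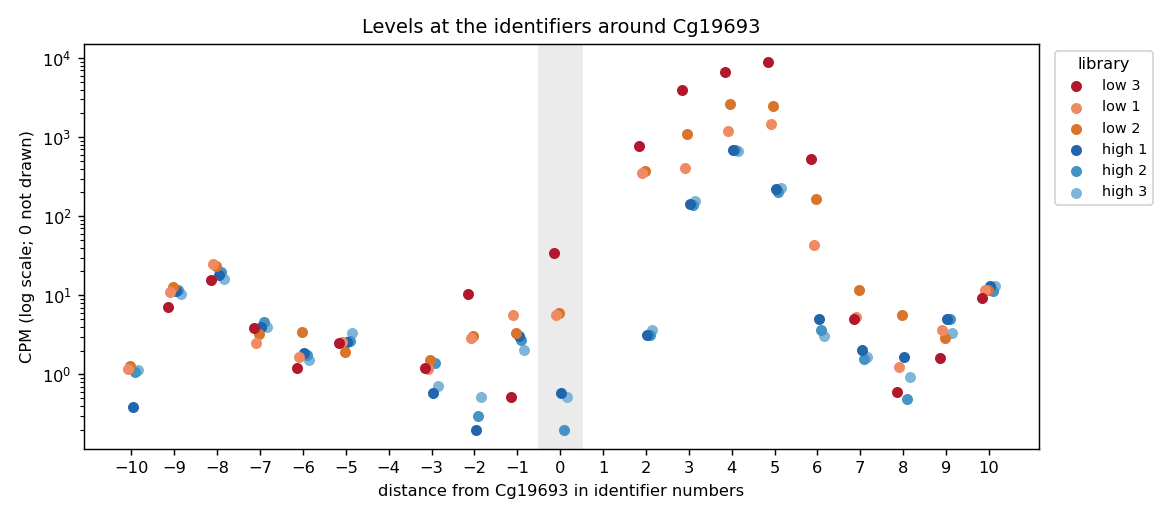
CPM (log scale) in each library at Cg19693 (shaded) and at the identifiers up to 10 numbers below and above it. Low library 3 is on top at 7 of the 9 identifiers from 2 below to 6 above, with low libraries 1 and 2 between it and the high libraries, and outside that stretch low library 3 is on top at none of the identifiers shown.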

How the data were processed

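Poly(A) RNA was captured from mantle total RNA and made into PCR-amplified Illumina libraries, per the labels' protocols, which mention neither strand marking nor molecular identifiers. The authors deposited raw read counts per gene. For aligner, counter, build and annotation, no name is given in the sources used here. The high columns were matched to the labels by group letter and replicate number. Of 34871 identifiers, 0 matched the RefSeq table of assembly xbMagGiga1.1 (33331 genes), so gene lists, sequences and positions are not reported. The table has 0 columns of other samples.

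CPM is a count over its column total, times 1000000. Fits used the edgeR 4.0.16 quasi-likelihood test (robust, TMM, R 4.3.3), with Benjamini-Hochberg adjustment over all genes tested and fold changes of low over high. Standard errors are the absolute log2 fold change over the square root of F. Genes entered with a mean of 10 or more reads over 5 libraries, or by filterByExpr over 6. Alternatives were RLE factors, library size alone, other filters, DESeq2 1.42.0, limma-voom (limma 3.58.1), a replicate block, leaving out the 20 most abundant genes, and leaving out each library. Exact binomial and Poisson intervals cover counting error only, and they treat reads as independent molecules, which PCR reads are not. Intervals of log2 fold changes come from the standard error of the fit and include the spread between libraries. The fits were tested on simulated data. Without names, the naming rule took called members with the highest and lowest fold change; the other members are named because they are 5 in all, and the neighbours after their values were seen. Members and lists were chosen with earlier results of these data known.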

Additional observations from a re-analysis of the deposited data

How the results depend on the processing

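The number of genes that meet the rule depended on its settings. It was 11 with TMM-adjusted and 11 with RLE-adjusted library sizes, which raise low library 3 (TMM factor 0.823), 12 at 3 times, 0 at 8 times, 2 at 50 CPM and 15 with XLOC rows. Leaving out each other library gave 5 to 15, the 15 without low library 2, and all 5 genes stayed in. Their share of low library 3 was 0.0481%, 0.350% with XLOC rows and 1.42% with no limit on the mean. With members at 3 times, 3 lay within 5 identifier numbers of another. Without low library 3 in the fit, 2 genes were called higher in 10 of 13 alternatives, the replicate block included, and 3 with library size alone, DESeq2 and without low library 1, while 0 were lower in all 13; the median log2 fold change of the 5 was 1.07, ranging over the fits without 1 library from 0.24 to 1.60. With 3 low against 3 high libraries, the 1 call became 2 with library size alone, 0 with no count filter, 3 with DESeq2, 0 with limma-voom, 2 with the replicate block, and 0 to 2 without 1 library; the cause was not tested. Cg23294 passed the threshold with library size alone, DESeq2 and without low library 1 (adjusted p from 6.7e-10 to 0.337 over 13 fits). The sign of Cg22415 changed with library size alone (0.28), the replicate block (0.082), without low library 1 (0.20) and without high library 3 (0.10), within -0.41 to 0.20 over the fits without 1 library, and that of Cg14895 with library size alone (0.026). Deviations of same-numbered libraries from their group means correlated at 0.0556, 0.0526 and 0.162. For high libraries 2 and 3 the same-numbered low library correlated best, and for high library 1 it was low library 2 (0.0760). Such deviations sum to 0 within each group, so these values cannot decide whether equal numbers stand for a pairing. The main fits did not pair the libraries.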

Other observations

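In a second stretch of identifiers, Cg19978 to Cg19982, low library 3 was also above low libraries 1 and 2, and these above the high libraries. Its 5 genes were found by low library 3 being at 2 or more times every other library, and their median ratio was 3.05. By CPM of column totals, all 5 had low libraries 1 and 2 above every high library. So did 44.9% of all genes tested, which were not chosen by low library 3. This stretch took 5.23% of the reads of low library 3, and its share of the other libraries was not computed. Of the 92 Cg rows at that ratio with a mean of at least 10 reads, 22 lay in 7 runs of 2 or more, and 70 stood alone. These 2 stretches were the longest of the 7 runs, and both were picked out after their values were seen.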
